A study of Drosophila melanogaster with 48 samples.

Results

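Tubulin genes encode the alpha and beta subunits of microtubules, and the fly genome holds several copies of each that are used in different tissues. The 8 genes described here were chosen by name: the beta-tubulin genes betaTub85D, betaTub56D, betaTub60D and betaTub97EF and the alpha-tubulin genes alphaTub84B, alphaTub84D, alphaTub85E and alphaTub67C. All 8 were present in the files, which listed 13555 genes in all, 11029 of them in lysate and 11997 in gradient pools. An alpha and a beta subunit join into a dimer, and dimers polymerise into the spindle, the cytoplasmic array and the axoneme of the sperm tail. In Drosophila, betaTub85D is the beta subunit of the testis germ line from the spermatocyte stage onward, while betaTub56D and alphaTub84B are the subunits used in most tissues.

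The testes came from bam-/-;hsBam flies. Without bam, spermatogonia go on dividing, and a bam gene under a heat-shock promoter lets them start differentiating together. Flies were grown at 22 °C, shocked as pupae at 37 °C for 30 min and returned to 25 °C, and every library, 0 h included, was from shocked animals. Total lysate was collected at 0, 16, 24, 32, 48 and 72 h, and 6 pools of a polysome gradient at 24, 48 and 72 h. The gradient gave a free pool, a 40S, a 60S and an 80S pool, and heavier pools of mRNA with 2-3 and with 4+ ribosomes. Each group had 2 libraries, for a total of 48. Time after the shock, animal age and recovery from the shock cannot be told apart. The shock reaches the whole animal, and the labels do not say whether the 2 libraries of a group were taken from different animals. All p-values therefore measure only the spread between these libraries, which may be technical.

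Levels are reads at 3′ ends relative to the library total, in CPM, after scaling by trimmed means (scaled CPM). The method counts mRNA ends, so levels are compared between genes without a correction for length. A gene absent from a library is called unlisted. The lowest listed count was 20 reads in lysate and 10 in gradient pools. Lysate libraries held 12.04 to 20.67 M reads and gradient libraries 0.445 to 9.57 M. The 2 libraries of 0 h stood apart from each other, with a correlation over genes of 0.612, against 0.931 to 0.982 between the 2 libraries of every later time. Replicate 1 of 0 h also held lower sums of accessory gland markers (8.43 scaled CPM in replicate 1 and 358 in replicate 2), of cyst cell markers (109 and 184) and of muscle markers (1066 and 1613, with 3 of 10 unlisted in replicate 1). Replicate 2 of the 60S pool at 72 h was the shallowest gradient library, at 0.445 M reads, and listed 1870 genes. Counts of calls over the tubulin genes are also given without these libraries, and values for the genes described where their call changes. Counts over other gene lists and markers rest on all libraries.

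Each gene is a single locus with no overlapping gene in the dm6 annotation. betaTub85D lies on 3R at 9408383 to 9410282 on the minus strand and has 2 exons, alphaTub85E on 3R at 9731221 to 9733250 on the minus strand with 3 exons, and betaTub97EF on 3R at 27967008 to 27988384 on the minus strand with 7 exons. alphaTub84B lies on 3R at 7086599 to 7088839 on the plus strand with 2 exons, alphaTub84D on 3R at 7530753 to 7532732 on the plus strand in a single exon, and alphaTub67C on 3L at 9681268 to 9683370 on the plus strand with 2 exons. betaTub56D and betaTub60D lie on 2R. alphaTub84B and alphaTub84D encode nearly the same protein. The sources used here do not say how reads matching several genes were assigned, but counts were made at 3′ ends, and those of alphaTub84B and alphaTub84D lay at different distances from the stop codon.

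betaTub85D, the testis beta-tubulin, was unlisted or at most 6.77 scaled CPM through 32 h and was the most abundant of the 4 beta genes at 48 and 72 h. It was unlisted in both libraries of 0 h and both of 24 h. One library of 16 h held 6.77 scaled CPM and one of 32 h held 2.25, and the other library of each time was unlisted. At 48 h it stood at 358 and 299 scaled CPM, and at 72 h at 1540 and 1758. The libraries of 48 and 72 h did not overlap with each other or with any earlier library. Against 0 h, where it was unlisted, the level was at least 177-fold higher at 48 h and at least 913-fold higher at 72 h, with the 0 h libraries set at the lowest listed count of 20 reads. The mean at 72 h was 5.02 times that at 48 h. In limma's test over 10339 genes, with Benjamini-Hochberg adjustment, the adjusted p was 1.07e-05 at 48 h and 9.63e-07 at 72 h, with fitted log2 differences of 8.58 ± 0.70 and 10.92 ± 0.69 (SE, n = 2 per group) that depend on the value entered for unlisted libraries. Sums of 6 genes listed as spermatid markers moved with betaTub85D: 10597 and 10272 scaled CPM at 72 h, against 7.96 and 0 at 0 h. Which cells held these mRNAs, and whether spermatids were present at 72 h, was not tested. Sums of 9 spermatocyte markers were 919 and 1112 at 72 h, against 54.3 and 38.8 at 0 h, and already 474 and 504 at 32 h, when betaTub85D was at most 2.25. In bulk testis, more cells of a type and more RNA per cell cannot be told apart.

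**Figure D1:**
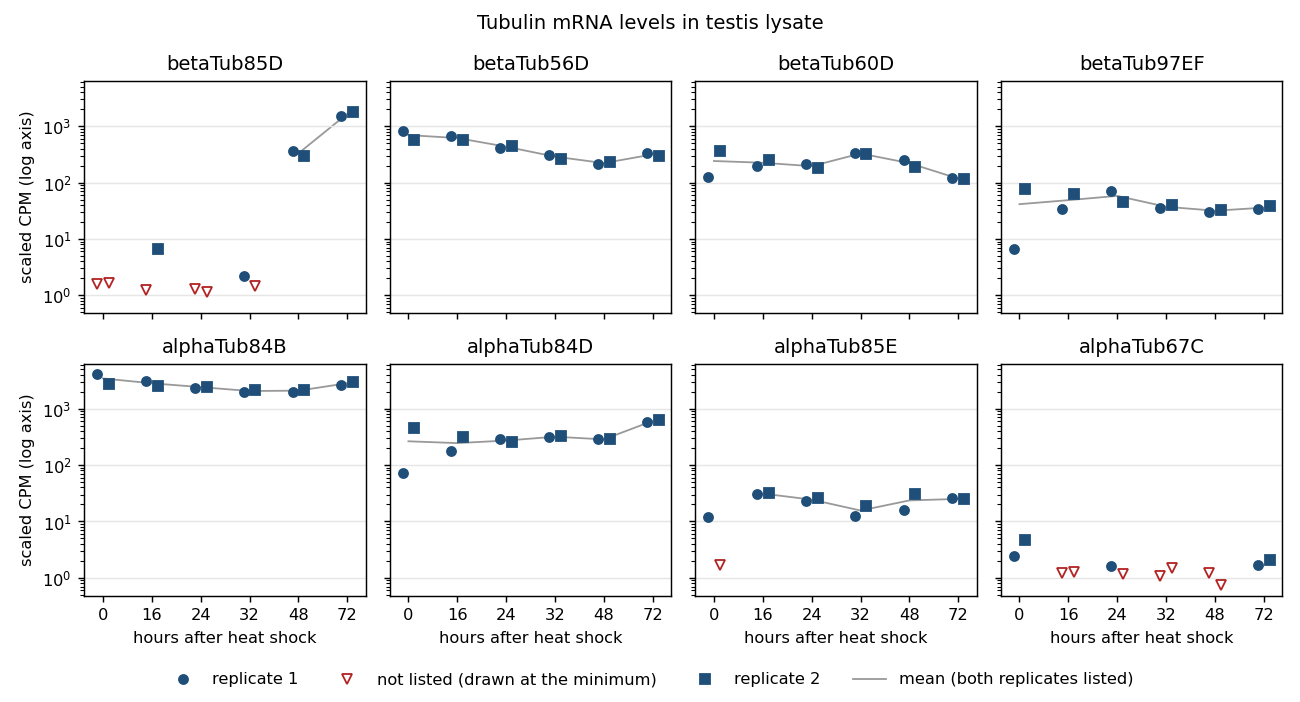
Level of each tubulin gene in testis lysate (scaled CPM, log axis) against hours after heat shock, with a circle or square per library, a grey line through the means of times with both libraries listed, and open triangles at the listing minimum for unlisted libraries. betaTub85D climbs to 299 and 358 scaled CPM at 48 h and 1540 and 1758 at 72 h, while betaTub56D is lowest at 48 h and the 2 libraries of 0 h lie far apart for betaTub97EF and alphaTub84D.

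betaTub56D, the general beta-tubulin, had fallen by 32 h, when betaTub85D was at most 2.25 scaled CPM. The mean of betaTub56D was 692 scaled CPM at 0 h and 288 at 32 h and was lowest at 48 h. This gene stayed listed in every lysate library. Its libraries held 818 and 566 scaled CPM at 0 h, 663 and 566 at 16 h, 416 and 447 at 24 h, 313 and 263 at 32 h, 214 and 228 at 48 h and 336 and 294 at 72 h. The libraries of 0 and 16 h overlapped, and both of 48 h lay below all others. The log2 difference was -1.25 ± 0.20 at 32 h against 0 h (limma adjusted p = 0.00603), -1.62 ± 0.20 at 48 h (1.66e-04) and -1.11 ± 0.20 at 72 h (0.00152). Without replicate 1 of 0 h the value at 72 h was -0.85 (adjusted p = 0.00304) and without replicate 2 it was -1.38 (7.03e-05). The calls at 32 and 72 h were lost when only the groups compared entered the fit (limma adjusted p = 0.171 and 0.0584). The call at 32 h was lost without replicate 2 of 32 h (-1.12, limma adjusted p = 0.0595). Without replicate 2 of 0 h it passed at 24 h too (-0.92, 0.00421). Set against 24 h, a comparison added after the data were seen because its 2 libraries are alike, the 72 h value was -0.45 ± 0.20 and did not pass (limma adjusted p = 0.104). At 72 h its mean was 1.43 times that at 48 h.

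betaTub60D, a beta-tubulin known from developing muscle and from the somatic cyst cells of the testis, had its highest mean at 32 h. It stood at 126 and 356 scaled CPM at 0 h, 193 and 255 at 16 h, 212 and 178 at 24 h, 339 and 316 at 32 h, 254 and 186 at 48 h and 119 and 116 at 72 h. Both libraries of 72 h lay below all others. No difference from 0 h passed, and the 0 h libraries decide this gene: at 72 h the log2 difference was -1.60 without replicate 1 (limma adjusted p = 2.86e-04) and -0.10 without replicate 2 (0.783). At 48 h it was -0.72 without replicate 1 (0.0281) and 0.78 without replicate 2 (0.0219), and without replicate 2 it also passed as higher at 16 h (0.82, 0.0499) and 32 h (1.38, 0.00241). Against 24 h the value at 72 h was -0.72 ± 0.42 (limma adjusted p = 0.208). Sums of 8 cyst cell markers were highest at 16 and 24 h (227 to 350 scaled CPM) and stood at 154 and 149 at 72 h, and their part in the level of betaTub60D was not tested.

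betaTub97EF, a beta-tubulin expressed in several somatic tissues, remained a minor gene. Its libraries held 6.64 and 76.1 scaled CPM at 0 h and 30.2 to 69.9 at all later times. No comparison with 0 h passed. The log2 difference at 72 h was -1.09 without replicate 1 of 0 h and 2.42 without replicate 2 (limma adjusted p = 0.0313 and 0.00550), so that its direction from 0 h depends on the library. At 48 h it was -1.26 (0.0155) and 2.26 (0.00832), and without replicate 2 it was also higher at 16, 24 and 32 h (2.47 to 3.08, 0.00430 to 0.0101).

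The beta isotypes therefore changed places within the summed level of the 4 genes. betaTub85D made up 41.8% and 40.1% of the beta level in the libraries of 48 h and 75.9% and 79.7% in those of 72 h, and at most 0.76% in any earlier library. betaTub56D made up 86.1% and 56.7% at 0 h, 45.4% and 42.5% at 32 h, 25.0% and 30.5% at 48 h and 16.6% and 13.3% at 72 h. betaTub60D held the largest beta share at 32 h, with 49.3% and 51.0%, and 5.85% and 5.27% at 72 h. The ratio of betaTub85D to betaTub56D was 1.67 and 1.31 at 48 h and 4.58 and 5.97 at 72 h. The summed beta level was 2028 and 2206 scaled CPM at 72 h, against 950 and 998 at 0 h, and was lowest at 32 h with 689 and 618. These shares are descriptions, with no test.

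**Figure D2:**
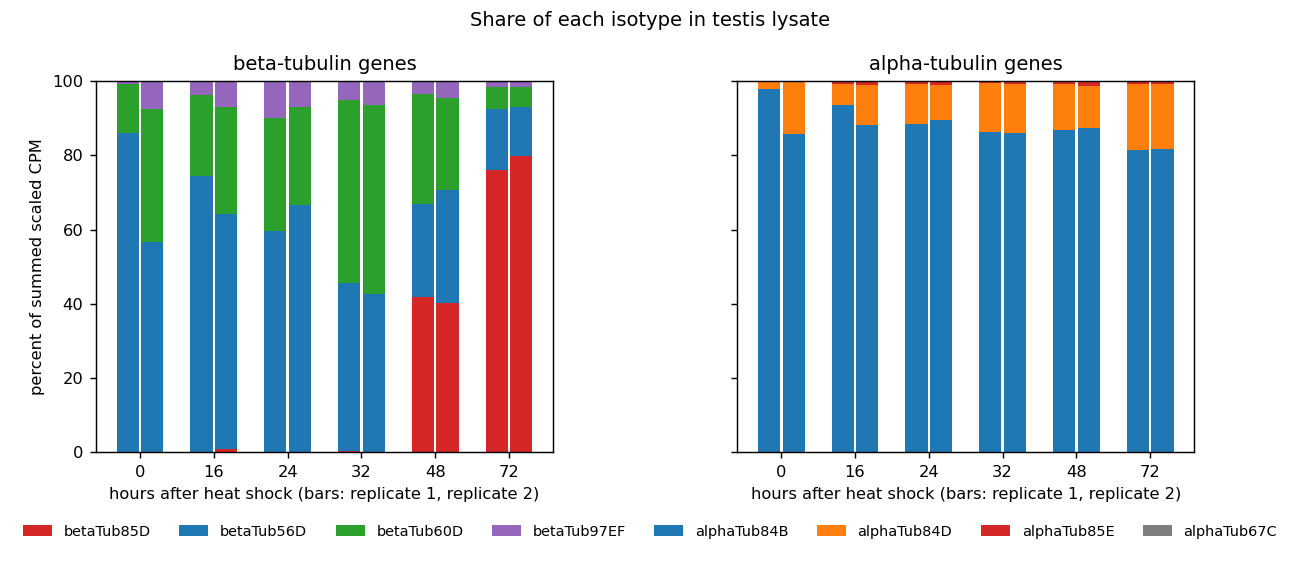
Share of each gene in the summed scaled CPM of the 4 beta-tubulin genes (left) and the 4 alpha-tubulin genes (right), with 2 bars per time for the 2 lysate libraries. betaTub85D takes 75.9% and 79.7% of the beta level at 72 h, and alphaTub84B takes over 80% of the alpha level in all 12 libraries.

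Of the 8 genes, no alpha gene showed a rise like that of betaTub85D. CG7794, a further alpha-tubulin gene given below, was unlisted at 0 h and had risen by 48 h. alphaTub84B, the general alpha-tubulin and the partner of betaTub85D in sperm axonemes, was the most abundant of the 8 genes in every lysate library. It stood at 4089 and 2750 scaled CPM at 0 h, 3048 and 2564 at 16 h, 2361 and 2441 at 24 h, 2002 and 2094 at 32 h, 1993 and 2161 at 48 h and 2634 and 2989 at 72 h. The libraries of 0 and 72 h overlapped. Its log2 difference from 0 h was -0.71 ± 0.19 at 32 h (limma adjusted p = 0.0459) and -0.69 ± 0.19 at 48 h (0.0166). The fall at 48 h rests on the scaling and on the 0 h libraries: with scaling by total reads the value was 0.02 (adjusted p = 0.926), and without replicate 1 of 0 h it was -0.40 (0.0564). It was also lost without either library of 48 h (adjusted p = 0.0832 and 0.0558). The call at 32 h was lost without replicate 1 of 0 h (0.116) and without either library of 32 h (0.199 and 0.166). Without replicate 2 of 0 h it passed as lower at 16 h (-0.55, 0.0338), 24 h (-0.77, 0.00543) and 72 h (-0.54, 0.0109) as well. The ratio of the summed alpha level to the summed beta level was 1.60 and 1.66 at 72 h, against 4.39 and 3.22 at 0 h.

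alphaTub84D, whose protein is almost that of alphaTub84B, had its highest levels at 72 h. Its libraries held 72.4 and 454 scaled CPM at 0 h, 179 and 310 at 16 h, 287 and 256 at 24 h, 309 and 325 at 32 h, 286 and 284 at 48 h and 574 and 637 at 72 h. Both libraries of 72 h lay above all others. The log2 difference at 72 h from 0 h was 1.75 ± 0.65 and just missed the threshold (limma adjusted p = 0.0551). It was 0.41 without replicate 1 of 0 h (0.216) and 3.06 without replicate 2 (1.21e-05), where it also passed at 16, 24, 32 and 48 h (1.70 to 2.13, 4.04e-04 to 0.00519). Against 24 h it was 1.16 ± 0.64 (limma adjusted p = 0.182). Its share of the alpha level was 17.7% and 17.5% at 72 h, against 1.73% and 14.2% at 0 h.

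The other alpha genes were rare. alphaTub85E, an alpha-tubulin known from muscle and chordotonal organs, held 12.02 scaled CPM in replicate 1 of 0 h, was unlisted in replicate 2, and lay between 12.6 and 32.1 at every later time. It passed as higher than 0 h at 48 h (log2 difference 2.85 ± 0.87, limma adjusted p = 0.0251) and at 72 h (2.95 ± 0.89, 0.0233), and without replicate 2 of 0 h the values were 0.97 (0.118) and 1.06 (0.0905). Without replicate 1 of 0 h they were 4.73 (1.27e-04) and 4.83 (7.44e-05), and it also passed at 16 h (5.14, 7.53e-04), at 24 h (4.79, 0.00136) and at 32 h (4.09, 0.00246), all of which depend on the value entered for the unlisted replicate 2. The call at 48 h was lost as well without replicate 2 of 48 h (limma adjusted p = 0.171), and that at 72 h without either library of 72 h (0.0757 and 0.0680). alphaTub67C, the maternal alpha-tubulin of eggs and embryos, was listed in 5 of 12 lysate libraries at 25 to 55 reads. It stood at 2.42 and 4.64 scaled CPM at 0 h, was unlisted at 16, 32 and 48 h, and stood at 1.69 and 2.05 at 72 h. It passed as lower at 32 h (limma adjusted p = 0.0236) and at 48 h (0.00250), and the call at 32 h was lost without either library of 32 h (0.134 and 0.0898). Without replicate 1 of 0 h it passed as lower at 16 h too (-2.82, 0.0299). Measured against the listing minimum, it was at least 1.64-fold lower at 32 h and at least 1.96-fold lower at 48 h than at 0 h.

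Counted over the 8 genes, none of 8 passed at 16 h, when 0.89% of the 10339 genes tested did, and none at 24 h, when 1.61% did. At an unadjusted limma p under 0.05 there were 2 at 16 h and 4 at 24 h, and limma without observation weights called 0 at both times. At 32 h 3 fell (4.8% of all genes were lower), at 48 h 2 rose (32.2% higher) and 3 fell (13.8% lower), and at 72 h 2 rose (35.6% higher) and 1 fell (11.4% lower). Against 24 h, betaTub85D was the 1 gene of 8 that passed at 72 h, where 42.4% of all genes did. Of all genes called, 60.3% were higher at 32 h, 69.9% at 48 h and 75.7% at 72 h, and scaling by total reads gave 94.2%, 93.0% and 82.9%. The median log2 difference of the 8 genes at 72 h from 0 h was 0.23 and that of all genes 0.46. Without replicate 2 of 0 h, 4, 4, 6, 7 and 5 of the 8 genes passed at 16, 24, 32, 48 and 72 h, and without replicate 1 the numbers were 2, 1, 3, 6 and 5.

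Of 4 further tubulins, 3 rose at 72 h against 0 h in lysate and none fell, where 35.6% of all genes were higher and 11.4% lower. betaTub65B, a divergent beta-tubulin, was named after its values were seen: it held 125 and 110 scaled CPM at 72 h and was unlisted at 0 h (limma adjusted p = 1.31e-08). CG7794, a divergent alpha-tubulin gene, held 51.9 and 51.8 at 48 h and 156 and 149 at 72 h and was unlisted at 0 h (1.26e-07 at 72 h). The third was gammaTub37C, a gamma-tubulin, with 8.49 and 5.20 scaled CPM at 72 h (log2 difference 2.97 ± 0.44, limma adjusted p = 4.39e-04). It was unlisted in both libraries of 0 h, so its fitted difference depends on the value entered there. The other gamma-tubulin, gammaTub23C, did not pass (limma adjusted p = 0.156). Both betaTub65B and CG7794 stayed far below betaTub85D in level. At 72 h betaTub65B lay near betaTub60D (119 and 116 scaled CPM), and CG7794 lay above alphaTub85E (25.6 and 24.6). Neither betaTub65B nor CG7794 is counted in the isotype shares or in the summed alpha and beta levels above.

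Genes that fold, modify, nucleate or bind tubulin were counted in the same comparison, 72 h against 0 h, in which 35.6% of all genes were higher and 11.4% lower. Of 20 folding genes (the CCT chaperonin, prefoldin and tubulin cofactors) 7 rose and 1 fell, a share of risers near that of all genes. Arl2, a small GTPase of the cofactor complex, stood at 152 and 154 scaled CPM at 72 h, against 71.0 and 47.8 at 0 h (log2 difference 1.39 ± 0.21, limma adjusted p = 4.99e-04). TBCB, a tubulin cofactor, also rose (1.38 ± 0.36, 0.0123), and the chaperonin subunit CCT7 fell (-0.50 ± 0.14, 0.0173). Of 15 genes for tubulin modification that were measured, such as the tubulin ligase-like TTLL family and deacetylases, 14 rose and none fell, against the 35.6% of all genes that were higher. Sirt2, a deacetylase, stood at 69.1 and 92.6 scaled CPM at 72 h, against 13.9 and 8.94 at 0 h (2.83 ± 0.35, 1.14e-04). HDAC6, a tubulin deacetylase, held 39.6 and 33.6 at 72 h, against 0 and 21.0 at 0 h (3.13 ± 1.02, 0.0326). It was unlisted in replicate 1 of 0 h, so its fitted difference depends on the value entered there.

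Where 35.6% of all genes were higher and 11.4% lower, 8 of 12 nucleation genes rose and none fell, among them the gamma-tubulin ring proteins Grip84 (136 and 190 scaled CPM at 72 h, against 0 and 131 at 0 h, limma adjusted p = 0.0463) and Grip128 (40.0 and 55.3 at 72 h, against 0 and 20.7 at 0 h, 0.0174). Both were unlisted in replicate 1 of 0 h, so their fitted differences depend on the value entered there. Of 21 genes for microtubule binding and dynamics 12 rose and none fell. chb, the fly CLASP protein, stood at 97.4 and 132 scaled CPM at 72 h, against 6.32 and 3.54 at 0 h (log2 difference 4.57 ± 0.40, limma adjusted p = 8.74e-06), and tacc, a centrosomal microtubule protein, at 86.6 and 84.5, against 18.4 and 24.7 (2.01 ± 0.27, 2.11e-04). The 7 axoneme genes tested, of 11 on the list, rose, including Bug22 with 337 and 390 at 72 h, against 127 and 63.1 at 0 h (2.01 ± 0.27, 2.01e-04). Over the lists the median log2 difference was -0.03 for folding, 3.13 for modification, 2.57 for nucleation, 1.26 for binding and dynamics and 4.63 for axoneme genes, against 0.46 for all genes. List counts and medians include genes unlisted at 0 h, whose fitted differences depend on the value entered there. The axoneme median at 16, 24 and 32 h (-0.36, -0.40 and -0.35) was that of betaTub65B, unlisted at these times and at 0 h. Bug22 was the only axoneme riser with a mean log2 CPM of at least 4. At 72 h against 24 h, 42.4% of all genes changed either way. In that comparison 4 of 20 folding genes rose and 1 fell. Risers were 11 of 15 for modification, 6 of 12 for nucleation, 13 of 21 for binding and dynamics and 7 of 7 for axoneme genes. None on these lists fell, so the counts are also those of genes changed either way, and 6 of 12 for nucleation lies near the share of all genes.

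Over the 12 lysate libraries, the genes whose levels were most like each tubulin gene differed from gene to gene. Likeness was Pearson's r of log2 scaled CPM among 4746 genes of at least moderate level, given as a description since libraries of a time share their source. betaTub85D was nearest to CG31740 (r = 0.982), CG7220 (0.982) and Mst84Db (0.979), the last of a family of sperm proteins. betaTub56D was nearest to hoip (0.985), RpS2 (0.984) and Rac2 (0.981). The nearest gene was Ns3 for betaTub60D (0.934), Snx3 for betaTub97EF (0.982), CG3321 for alphaTub84B (0.978), Desat1 for alphaTub84D (0.957), schlank for alphaTub85E (0.962) and CG9737 for alphaTub67C (0.936). Unlisted libraries enter r at the value given to them, and alphaTub67C was listed in only 5 and betaTub85D in 6 of the 12 libraries. The discordant libraries of 0 h enter r too, and lie far apart for betaTub97EF and alphaTub84D.

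Polysome gradients were used to ask how each mRNA was placed over the pools relative to other mRNAs. The free pool holds RNA above the subunits, and the pool of 4+ ribosomes the most heavily loaded mRNAs. Levels are scaled within each pool, so a ratio of pools is relative to the other mRNAs. A share of the level summed over pools weighs all pools alike and is not the fraction of an mRNA in a pool. alphaTub67C was listed in 2 of 36 gradient libraries and was not tested, which left 7 genes.

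betaTub56D differed most between the 4+ and free pools of the 7 genes at 72 h. In the pool of 4+ ribosomes it held 899 and 1076 scaled CPM at 24 h, 806 and 668 at 48 h and 1808 and 1107 at 72 h. In the free pool it held 461 and 465 at 24 h, 228 and 276 at 48 h and 74.2 and 152 at 72 h. At each time both libraries of the heavy pool lay above both of the free pool. The ratio of the 4+ pool to the free pool was 1.95 and 2.32 at 24 h, 3.53 and 2.42 at 48 h and 24.4 and 7.26 at 72 h. As a log2 difference this was 1.55 ± 0.46 at 48 h (limma adjusted p = 0.0286) and 3.73 ± 0.46 at 72 h (1.51e-06). The call at 48 h was lost without any 1 of the 4 libraries compared (1.41 to 1.68, limma adjusted p = 0.0678 to 0.212), and that at 72 h was not. The gain of 4+ over free at 72 h relative to 24 h was 2.65 ± 0.65 in an interaction contrast (limma adjusted p = 0.0131). That gain fell short of the threshold without replicate 1 of any 1 of the 4 groups compared (2.13 to 2.65, 0.0574 to 0.131), and without the shallow 60S library it was 2.68 ± 0.47 (4.36e-04). At 24 h the log2 difference of 4+ and free was 1.09 ± 0.46 and did not pass (limma adjusted p = 0.191), but passed without that library (1.09 ± 0.31, 0.0159). Of its summed level over the 6 pools at 72 h, 60.2% and 56.8% lay in the 4+ pool, against 23.2% and 28.5% at 24 h.

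alphaTub84B and alphaTub84D were also higher in the 4+ pool than in the free pool at 72 h. alphaTub84B held 8292 and 6258 scaled CPM in the 4+ pool, against 2045 and 2274 in the free pool (log2 difference 1.74 ± 0.47, limma adjusted p = 0.00668). This call was lost without replicate 1 of the 4+ pool (1.54, 0.0744) or of the free pool (1.66, 0.0602). At 24 h the pools lay closer, at 4748 and 4915 in 4+ and 3344 and 3013 in free. alphaTub84D held 503 and 728 in the 4+ pool, against 68.5 and 79.2 in the free pool (3.04 ± 0.60, 3.86e-04). At 24 h it held 197 and 181 in 4+ and 102 and 83.8 in free. Its gain of 4+ over free between 24 and 72 h was 2.01 ± 0.85 and did not pass (limma adjusted p = 0.192), whereas without the shallow 60S library it was 2.03 ± 0.48 (0.00505). Without that library its 4+ to free difference also passed at 24 h (1.02 ± 0.34, 0.0373) and 48 h (1.56 ± 0.40, 0.00544). For both genes the libraries of the 2 pools did not overlap at 72 h.

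The rare isotypes alphaTub85E and betaTub97EF also stood higher in the heavy pool at 72 h. alphaTub85E held 82.3 and 71.6 scaled CPM in the 4+ pool, against 9.49 and 17.9 in the free pool (log2 difference 2.58 ± 0.81, limma adjusted p = 0.0180). betaTub97EF held 36.7 and 42.0, against 6.33 and 11.0 (2.24 ± 0.84, 0.0498). The call of betaTub97EF was lost without any 1 of the 4 libraries compared (limma adjusted p = 0.1001 to 0.311). That of alphaTub85E was lost without either library of the 4+ pool (0.0854 and 0.0611) and without replicate 1 of the free pool (0.189).

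For betaTub85D no difference between the 4+ and free pools passed. At 48 h its highest level was in the 40S pool, with 729 and 288 scaled CPM, against 136 and 31.2 in the free pool. The 40S pool then held 58.6% and 50.6% of its summed level over the 6 pools, and the 4+ pool 7.48% and 3.72%. At 72 h it held 758 and 548 in the free pool, 1165 and 1435 in 40S, 929 and 1064 in 80S, 345 and 357 in 2-3 ribosomes and 905 and 1211 in 4+ ribosomes. In the 60S pool at 72 h it held 1317 in replicate 1 and was unlisted in the shallow replicate 2, where the listing minimum was 7.65 scaled CPM. Over the 6 pools, 4+ held 16.7% of the summed level of betaTub85D in replicate 1 at 72 h. Replicate 2 gave 26.2%, but its 60S library was unlisted, so these shares cannot be compared. With the 60S pool left out of the sum, the 4+ pool held 22.1% and 26.2% at 72 h. Both libraries of 4+ lay above both of the free pool at that time. The log2 difference of 4+ and free at 72 h was 0.70 ± 1.27 (limma adjusted p = 0.723), and its wide error does not show that the pools were alike. Without the shallow 60S library, which belongs to neither of these pools, it was 0.70 ± 0.42. At 24 h it was listed in 4 of 12 gradient libraries, all of replicate 2, with at most 31 reads.

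betaTub60D had its highest mean in the free pool at 24 and 48 h, but at 24 h it overlapped there with the 40S pool (219 and 323 scaled CPM). At 24 h it held 128 and 116 scaled CPM in the 4+ pool, against 280 and 274 in the free pool (log2 difference -1.18 ± 0.52, limma adjusted p = 0.215). Without the shallow 60S library the same value was -1.18 ± 0.30 and passed (0.00622). At 72 h it held 95.9 and 125 in 4+ and 105 and 104 in free, and the pools overlapped.

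**Figure D3:**
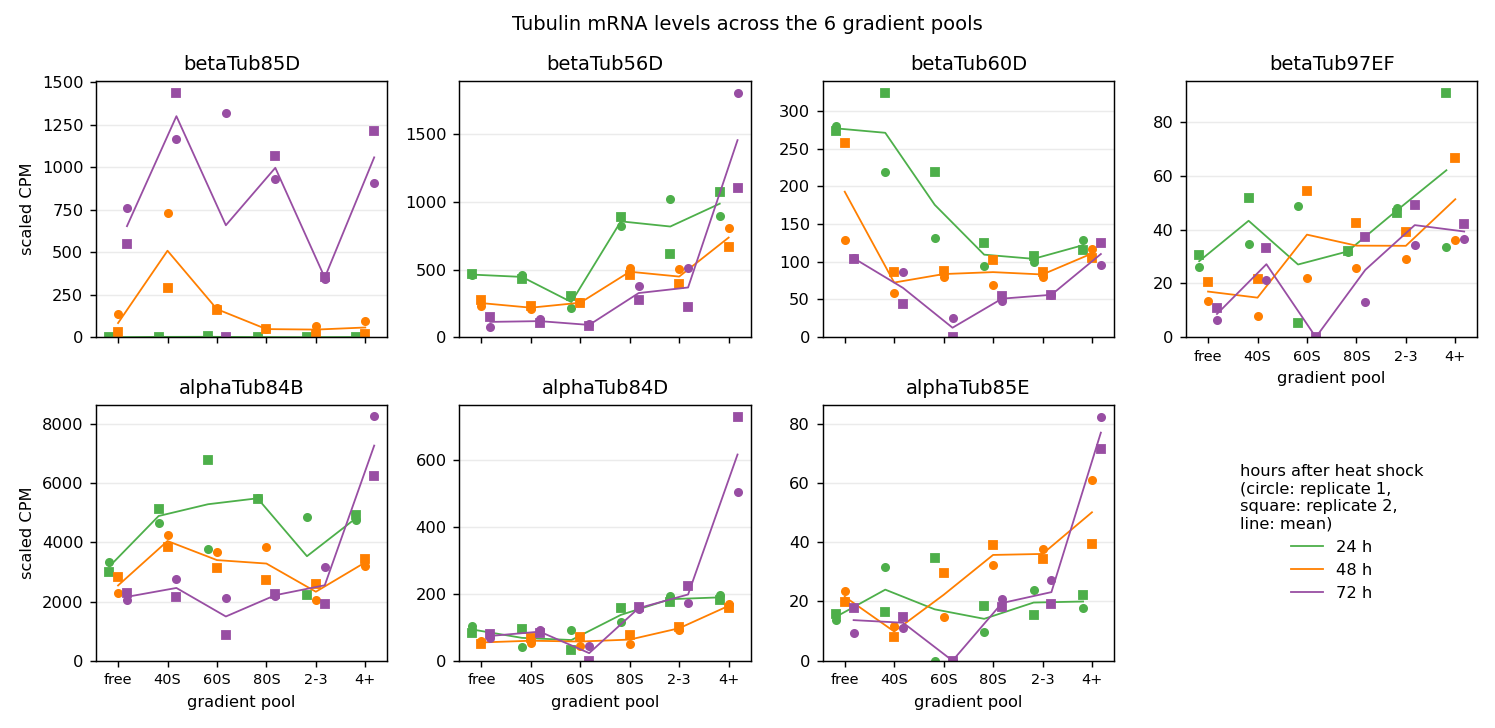
Level (scaled CPM, linear axes that differ between genes) in the 6 gradient pools at 24, 48 and 72 h, with a circle or square per library and lines through the means, in which unlisted libraries count as 0. betaTub56D, alphaTub84B, alphaTub84D and alphaTub85E peak in the 4+ pool at 72 h, while betaTub85D peaks in the 40S pool at 48 h with 729 and 288 scaled CPM.

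Counted over the 7 genes, none passed for 4+ against free at 24 h, when 5.84% of 10777 genes did, with 2 at an unadjusted limma p under 0.05 and 0 with limma without observation weights. At 48 h 1 passed (10.9% of all genes), and at 72 h 5 were higher in the 4+ pool (8.18% of all genes were) and none lower (18.4%). The median log2 difference of the 7 genes was 0.61 at 24 h, 1.17 at 48 h and 2.24 at 72 h, and that of all genes -0.44, -0.21 and -0.13. Of all genes called, 30.8% were higher at 72 h, and 65.1% with scaling by total reads, with which the median of all genes was 0.69. In the interaction contrast 1 of 7 was higher (0.659% of all genes). Without the shallow 60S library 3 passed at 24 h, 2 at 48 h, 5 at 72 h and 2 in the interaction. The 3 comparisons over time share no library, but the interaction reuses those of 24 and 72 h.

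**Figure D4:**
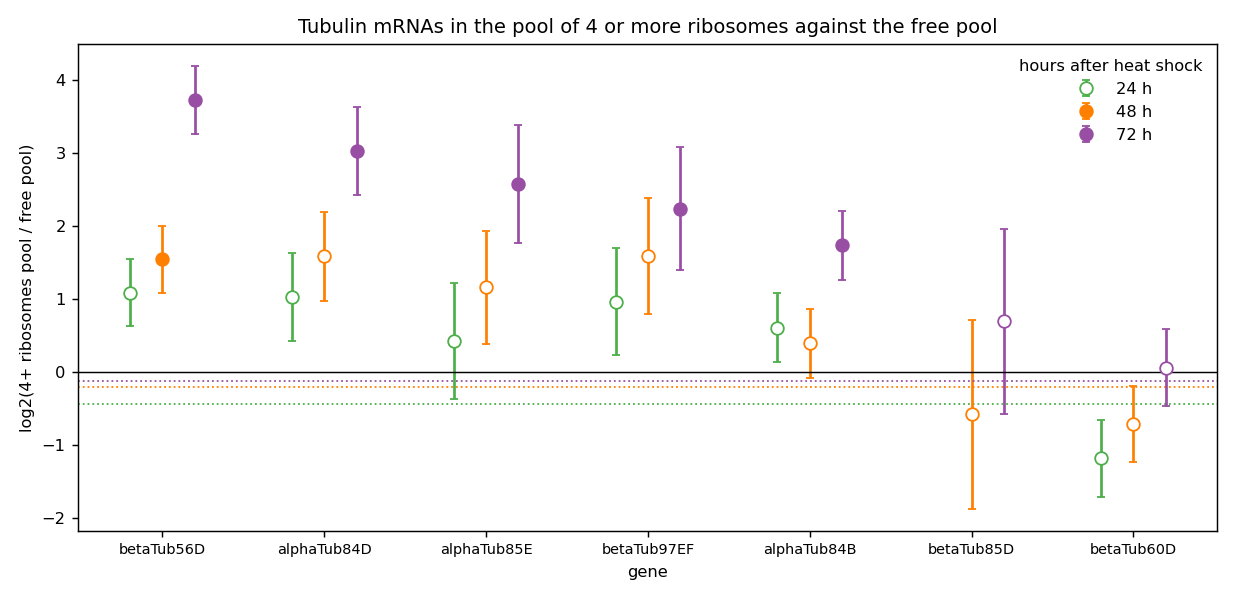
Fitted log2 difference between the 4+ ribosomes pool and the free pool for 7 tubulin genes at 24, 48 and 72 h (error bars are SE, n = 2 libraries per pool), filled where limma's adjusted p was under 0.05, with dotted lines at the median of all genes for each time. betaTub56D reaches 3.73 at 72 h, while betaTub85D (0.70 at 72 h, not drawn at 24 h, where it was mostly unlisted) and betaTub60D lie lowest.

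Against the 80S pool, none of 7 genes passed at 24 h (3.25% of all genes) or 48 h (2.64%), with 0 and 1 at an unadjusted limma p under 0.05 and 0 at both times with limma without observation weights. At 72 h 2 were higher in the 4+ pool (1.04% of all genes higher). betaTub56D held 1808 and 1107 scaled CPM in 4+, against 377 and 276 in 80S (log2 difference 2.13 ± 0.46, limma adjusted p = 0.00602). alphaTub84B held 8292 and 6258 in 4+, against 2189 and 2242 in 80S (1.70 ± 0.47, 0.0289). The call of alphaTub84B was lost without any 1 of the 4 libraries compared (limma adjusted p = 0.0862 to 0.241), and that of betaTub56D without replicate 1 of 4+ (1.78, 0.129) or replicate 2 of 80S (1.91, 0.108). alphaTub84D just missed (1.95 ± 0.60, 0.0507). Without the shallow 60S library, 5 of 7 genes passed, among them alphaTub84D at 1.96 ± 0.30 (4.08e-05), betaTub60D at 1.11 ± 0.37 (0.0319) and alphaTub85E at 1.97 ± 0.57 (0.0148), and betaTub85D and betaTub97EF did not. At 48 h alphaTub84D then passed too (1.41 ± 0.40, 0.0246).

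Within a pool over time, the free pool lost betaTub56D and gained betaTub85D. At 72 h against 24 h, 1 of 7 rose (25.3% of all genes higher) and 2 fell (7.17% lower) in the free pool. betaTub85D held 758 and 548 scaled CPM at 72 h and was unlisted at 24 h, at least 290-fold higher when set at the lowest listed count of 10 reads (limma adjusted p = 8.54e-07). betaTub56D fell by 2.12 ± 0.46 on the log2 scale (5.47e-04), and betaTub60D, with 105 and 104 at 72 h, against 280 and 274 at 24 h, fell by 1.40 ± 0.53 (0.0415). In the 4+ pool 2 of 7 rose (18.5% of all genes higher) and none fell (1.32% lower). These were betaTub85D, with 905 and 1211 at 72 h, against 0 and 1.87 at 24 h (2.59e-06), and alphaTub84D, with 503 and 728, against 197 and 181 (1.68 ± 0.60, 0.0478). The calls of alphaTub84D in the 4+ pool and of betaTub60D in the free pool were lost without any 1 of the libraries compared (limma adjusted p = 0.0828 to 0.282 and 0.1197 to 0.147). Without the shallow 60S library alphaTub85E also passed in the 4+ pool (1.95 ± 0.53, 0.00524). betaTub56D differed by 0.52 ± 0.46 there (limma adjusted p = 0.533), and in lysate by -0.45 ± 0.20 over the same times, which did not pass either (0.104).

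Marker lists of cell types differed in direction between the 4+ and free pools, where 8.18% of all genes were higher in 4+ and 18.4% lower. At 72 h the 6 genes listed as spermatid markers summed to 545 and 534 scaled CPM in the 4+ pool, against 21361 and 15394 in the free pool. All 6 passed as lower. The 9 spermatocyte markers summed to 4496 and 6557 in 4+, against 1822 and 2131 in free, with 4 higher. The 8 cyst cell markers summed to 169 and 259 in 4+, against 130 and 164 in free, with 1 higher, and the 10 muscle markers to 2074 and 1701, against 1222 and 2028, with 1 higher and 4 lower. The 5 markers of early germ cells that were measured summed to 171 and 147 in 4+, against 69.9 and 57.3 in free, with 2 higher. Which cells the loaded general isotypes came from was not tested. Of the 4 further tubulins, gammaTub23C was higher in 4+ (log2 difference 2.05 ± 0.71, limma adjusted p = 0.0333), and betaTub65B (-4.11 ± 0.58, 6.43e-06) and gammaTub37C (-3.90 ± 0.73, 2.03e-04) were lower.

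Each tubulin mRNA had a dominant 3′ end near the annotated end of its transcript. Counted from the last base of the stop codon, the main site lay at 271 nt for betaTub85D (annotated end at 270), 144 for betaTub56D (141), 106 for betaTub97EF (98), 258 for alphaTub84B (256), 121 for alphaTub84D (121), 108 for alphaTub85E (108) and 83 for alphaTub67C (82). betaTub60D had the longest 3′ untranslated region, with its main site at 911, 932 or 953 nt (annotated end at 952), and the spread over 3 positions lies within the 50 nt over which sites are merged. In lysate the main site held 91.98% to 100% of a gene's reads in every library. betaTub97EF and alphaTub85E had 1 site in lysate.

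**Figure D5:**
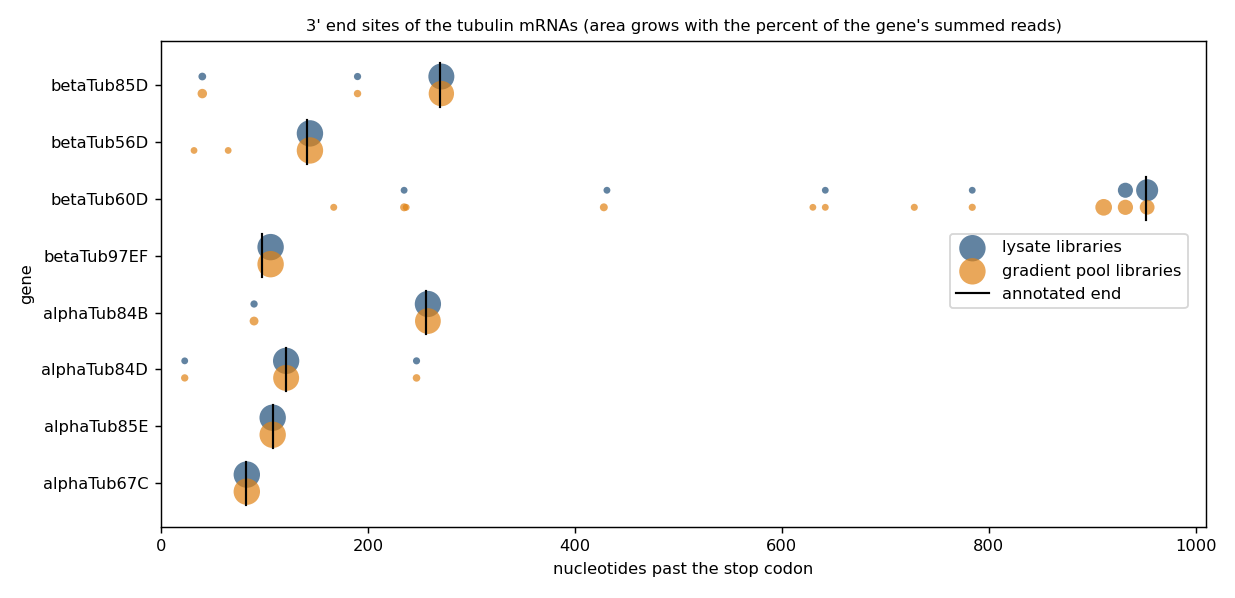
Distance of 3′ end sites from the stop codon (nt) for the 8 genes, for sites listed in at least 2 libraries, with dot area growing with the percent of the gene's reads summed over lysate (blue) or gradient (orange) libraries and a black tick at the annotated end. The largest dot of each gene lies at or near the tick, and betaTub60D has the farthest main site, at 911 to 953 nt.

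A short form of betaTub85D, ending 40 nt past the stop codon, was listed in lysate at 48 and 72 h with 1.95% to 3.00% of its reads. In gradient pools at 72 h the short form, as a share of the reads at the 40 and 271 nt sites, was 12.1% and 8.25% in 40S and 1.12% and 1.57% in 80S. It was 5.98% and 6.08% in 4+ ribosomes and 2.19% and 6.17% in the free pool. It was 8.96% and 13.2% in 2-3 ribosomes and 12.6% in replicate 1 of 60S, so that it was as high there as in 40S. The log2 ratio of the short to the long end did not differ detectably between 4+ and free at 72 h (0.61 ± 0.38, limma adjusted p = 0.441) or between 72 and 48 h in lysate (-0.29 ± 0.23, 0.585).

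alphaTub84D was the 1 of 2 tubulin genes tested for site choice at 72 h against 0 h that passed, where 22.3% of 3920 genes did. Its reads moved toward the site at 121 nt and away from that at 247 nt (log2 ratio 3.27 ± 0.74, limma adjusted p = 0.00970). The distal site held 26 and 24 reads at 72 h, against 0 and 154 at 0 h. It held at most 2.86% of the gene's reads in lysate and at most 9.74% in gradient libraries. The call was lost without replicate 2 of 0 h (1.95, adjusted p = 0.338) and without either library of 72 h (0.0665 and 0.0691). None of 3 genes passed in lysate at 72 h against 48 h (5.11% of all genes), and none of 3, 4 and 4 between 4+ and free at 24, 48 and 72 h (7.89%, 3.15% and 6.21%). At an unadjusted limma p under 0.05 these counts were 0, 2, 0 and 0. A second site of alphaTub84B, at 90 nt, held 5.37% to 21.6% of its reads in 17 of 36 gradient libraries, at 62 to 4823 reads, and was unlisted in the other 19, which the lowest listed count does not account for. alphaTub84B is among the 3, 4 and 4 genes counted above, with an SE of 4.88, 0.56 and 6.89 at 24, 48 and 72 h.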

How the data were processed

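RNA 3′ ends of 48 libraries were sequenced with QuantSeq 3′ FWD, per the labels' protocols. The submitters' processing notes name Bowtie 0.12.8 and dm6. Each file the authors deposited lists, per stop codon and protein name, packed pairs of end position and read count, which is a unit other than a plain count. For this reason limma was used and no count model. Sites were merged over 50 nt and trimmed at 20 reads (lysate) or 10 reads (gradient), as the deposited values show.

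Pairs were unpacked in Python 3.11.15 (pandas 2.3.3) and reads summed per gene by the protein name. Lysate positions did not match dm6, so sites are given as distance from the stop codon, and gene positions are from the dm6 annotation. A gene was tested if both libraries of any 1 group listed it. Unlisted genes were entered at 10 reads (lysate) or 5 reads (gradient). Levels were scaled by trimmed means. Tests used voom weights and limma 3.58.1 with robust moderation (R 4.3.3), and the 12 lysate libraries shared one estimate of the spread, as did the 36 gradient libraries. Benjamini-Hochberg adjustment ran over all genes tested, with a threshold of 0.05. Site choice was the log2 ratio of the 2 most used ends in libraries with at least 60 (lysate) or 30 (gradient) reads at the pair, weighted by reads. Tests were checked on simulated data.

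The text names all 8 tubulin genes, the 3 genes most like each (mean log2 CPM of at least 4; for 6 of the 8 only the nearest is printed), and of each pathway list the 2 members that rose and the 2 that fell most at 72 h against 0 h past the threshold with that mean. betaTub65B, CG7794 and the gamma-tubulins were named outside that rule. Members, gene lists and tests were chosen with earlier results of these data known. Lists held 85 genes in 6 pathways, of which 80 were found in lysate, and markers of 10 cell types. Other scalings, filters, entered values, fits and left-out libraries were tried.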

Additional observations from a re-analysis of the deposited data

Results flagged for a closer look

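betaTub56D gained 2.65 on the log2 scale in the 4+ pool over the free pool at 72 h relative to 24 h, a difference between times that passed its own interaction test (limma adjusted p = 0.0131). betaTub85D stood on opposite sides at 2 times. The 4+ pool held more than the free pool in both pairs of libraries at 72 h (ratios of 1.19 and 2.21) and less in both at 48 h (0.687 and 0.680), a log2 difference of 1.25 that was not tested. alphaTub84B held more in 4+ than in 80S in both pairs at 72 h (ratios of 3.79 and 2.79) and less in both at 24 h (0.860 and 0.899), a log2 difference of 1.89 that was not tested. Which libraries of 2 pools form a pair is a matter of number alone. The cause of these differences was not tested.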

How the results depend on the processing

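Of the printed log2 differences, 36 in number, 401 of 488 recomputations kept direction and side of the threshold, 70 lost the call, 16 gained it and 1 reversed. betaTub85D kept its calls in lysate and in both pools under every alternative, and so did betaTub56D at 48 h in lysate, at 72 h for 4+ against free and in the free pool. The cause of the other changes was not tested.

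As reported, 92, 166, 1248 and 4754 genes were called at 16, 24, 32 and 48 h against 0 h, 629, 1173 and 2864 for 4+ against free at 24, 48 and 72 h, 689 in the interaction, 350, 284 and 660 against 80S, and 3498 in the free pool over time. Site choice called 874 genes at 72 h against 0 h and 238 at 72 h against 48 h in lysate, and 350, 149 and 302 for 4+ against free.

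Scaling by total reads moved the median of all genes at 48 h against 0 h to 1.15 (0.43 with trimmed means) and at 32 h to 0.56 (-0.03), and alphaTub84B at 48 h reversed to 0.022. It called 330 genes at 16 h, 496 at 24 h and 2513 at 32 h against 0 h, and 2 tubulin genes at 72 h against 24 h. For 4+ against free it called 1491 genes and 3 tubulin genes at 24 h and 2383 and 4 at 48 h, and for 4+ against 80S 697 genes at 24 h, 1275 genes and 3 tubulin genes at 48 h and 1040 and 4 at 72 h. Scaling by median of ratios called 1 tubulin gene at 24 h and 2 at 48 h for 4+ against free.

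With only the groups compared, lysate counts were 4, 4, 164 and 2590 genes at 16, 24, 32 and 48 h, with 0, 3 and 1 tubulin genes at 32, 48 and 72 h and 4 at 72 h against 24 h. Gradient counts were 1746, 1966 and 5270 genes for 4+ against free at 24, 48 and 72 h (4 and 3 tubulin genes at 24 and 48 h), 1758 and 5 in the interaction, 925, 739 and 3395 against 80S (1 and 5 tubulin genes at 48 and 72 h) and 5984 in the free pool. A mean of at least 50 reads gave 1 tubulin gene at 32 h, 314 genes in the interaction and 1 tubulin gene in the 4+ pool over time. Unlisted genes at 1 read gave 157 genes at 16 h, 189 in the interaction and 1 tubulin gene in the 4+ pool over time. For limma without weights, of these counts only that of 1 tubulin gene in the 4+ pool over time was the same. At 10 listing minimums per pair, 571 genes changed site choice at 72 h against 0 h. The share of betaTub85D at 0 h was 0.158% with unlisted genes 1 read under the minimum, that of alphaTub67C at 48 h 0.0398%, and that of betaTub97EF at 72 h 1.74% from the main site alone.

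Same-numbered libraries did not deviate together in every pair of groups (correlation of -0.15 to 0.35 over 15 pairs of lysate groups and -0.22 to 0.47 over 153 of gradient groups, with 4 and 42 over 0.1), so the number was not taken as a pairing. The 153 pairs mix pools of the same time with pools of different times, so they cannot decide whether same-numbered pools of one time are paired. The replicate block was a single term for the number over all times, so 4+ against free was not tested as paired within a time. With the replicate block 48 genes were called at 16 h, 106 at 24 h and 1 tubulin gene in the 4+ pool over time, since alphaTub84D lost its call there (adjusted p = 0.0548). alphaTub84B at 32 h lost its call as well (0.0543), and no other printed tubulin call changed.

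Leaving out 1 library, where the lone sample of a group is assumed to vary like the others, gave these lowest and highest counts of genes called. In lysate they were 24 to 1762 at 16 h, 21 to 2480 at 24 h and 399 to 3310 at 32 h against 0 h, each highest without replicate 2 of 0 h. For 4+ against free they were 146 to 1717 at 24 h, 334 to 2352 at 48 h and 1495 to 4333 at 72 h, in the interaction 225 to 1572, against 80S 143 to 1239, 88 to 866 and 155 to 2236, and in the free pool 2324 to 4749, each highest without replicate 2 of the 60S pool at 72 h. Tubulin genes called were 0 to 4 at 16 and 24 h, 0 to 6 at 32 h, 3 to 7 at 48 h and 2 to 5 at 72 h against 0 h, and 1 to 2 at 72 h against 24 h. They were 0 to 3, 0 to 2 and 2 to 5 for 4+ against free at 24, 48 and 72 h, 0 to 2 in the interaction, 0 to 1 and 0 to 5 against 80S at 48 and 72 h, and 1 to 3 in the 4+ pool over time. Site choice gave 46 to 128 genes at 72 h against 48 h in lysate, 0 to 1 tubulin genes at 72 h against 0 h, and 109 to 414, 10 to 110 and 67 to 201 genes for 4+ against free at 24, 48 and 72 h.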
